A study of Mus musculus with 6 samples.

Results

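The primitive and visceral endoderm genes described here are Gata4, Gata6, Hnf4a, Pdgfra, Dab2, Lrp2, Cubn, Amn, Ttr and Afp, 10 of the 27962 gene names on the arrays. They were chosen by symbol, and every array probe carrying 1 of these symbols was taken, which gave 20 probes. Expression was measured in mouse embryonic stem (ES) cells, cultured pluripotent cells of the early embryo, 48 h after treatment with an siRNA against BRG1 or with a control siRNA. Both groups were F1 cells of 129 and C57BL/6 parentage. Each group held 3 single-colour Agilent arrays, called BRG1 siRNA 1 to 3 and control siRNA 1 to 3. The labels do not say whether the replicates came from separate cultures, and if they did not, the p-values below cover technical variation only.

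Primitive endoderm is the epithelium that forms on the surface of the inner cell mass before implantation. FGF signalling favours it and the pluripotency factor NANOG opposes it, and its cells switch on the zinc finger factors GATA6 and GATA4 and the PDGF receptor PDGFRA. Its visceral branch covers the early embryo, takes up maternal proteins through the endocytic receptors megalin (Lrp2) and cubilin (Cubn), and secretes carrier proteins of the kind later made by the liver. Amnionless (Amn) is the membrane partner that brings cubilin to the cell surface, and DAB2 is the adaptor that links such receptors to clathrin. Cultures of ES cells can hold a minority of cells that turn on part of this program. BRG1, encoded by Smarca4, is an ATPase of the SWI/SNF complexes, which remodel nucleosomes.

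Promoters of the 2 genes that passed the test, Dab2 and Amn, are shown because these are the genes the results turn on. The sequences are from RefSeq on GRCm38.p6, cover 250 bases before to 50 bases after each annotated start, and run in the direction of transcription. Capitals mark matches to the GATA motif, searched on both strands as GATA with an A or T before it and an A or G after it, so a match on the opposite strand appears as its reverse complement. Dab2 has 2 starts in the table, at chr15:6299539-6299838 and chr15:6386498-6386797, and Amn has 1, at chr12:111270846-111271145, all on the plus strand.
Dab2 start 1: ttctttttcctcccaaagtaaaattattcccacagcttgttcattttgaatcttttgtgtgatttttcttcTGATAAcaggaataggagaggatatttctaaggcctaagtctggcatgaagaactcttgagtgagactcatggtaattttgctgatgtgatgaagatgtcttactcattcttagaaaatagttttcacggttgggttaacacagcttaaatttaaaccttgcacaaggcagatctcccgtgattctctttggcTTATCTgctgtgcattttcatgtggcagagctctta
Dab2 start 2: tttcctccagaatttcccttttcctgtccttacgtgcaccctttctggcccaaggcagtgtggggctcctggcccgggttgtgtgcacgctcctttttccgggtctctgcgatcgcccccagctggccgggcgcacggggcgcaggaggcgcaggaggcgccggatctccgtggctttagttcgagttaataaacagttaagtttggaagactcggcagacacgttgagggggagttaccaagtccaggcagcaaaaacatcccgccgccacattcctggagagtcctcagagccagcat
Amn: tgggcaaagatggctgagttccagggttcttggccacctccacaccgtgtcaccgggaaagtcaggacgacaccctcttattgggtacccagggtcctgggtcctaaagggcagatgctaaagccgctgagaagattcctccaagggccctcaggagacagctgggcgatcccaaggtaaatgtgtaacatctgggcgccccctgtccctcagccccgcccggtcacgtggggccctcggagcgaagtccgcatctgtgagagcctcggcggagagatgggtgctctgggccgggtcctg

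The first Dab2 promoter held 2 GATA matches, TGATAA beginning at base -179 on the plus strand and AGATAA on the minus strand, whose leftmost base is base 15 after the start. The second Dab2 promoter and the Amn promoter held none. For the 7 endoderm genes whose promoters were used, 2 of 9 promoters held a GATA match (Dab2 start 1 and 1 of the Hnf4a starts), against 29.8% of all 32851 promoters in the table. The HNF4 motif CAAAGTCCA was in 0 of the 9, against 0.475% of all promoters. TATAAA was in 1 of the 9, that of Afp, against 13.6% of all promoters; none of the 3 motifs contains another. The 2 Dab2 starts differed in base composition, with 37.7% G+C and 2 CpG dinucleotides at the first and 59.3% G+C and 19 CpG at the second. Amn had 62.3% G+C and 15 CpG, while the median of all promoters in the table was 52.7% and 7. A match describes these letters only and is not evidence of binding, and no binding data were measured here.

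Probes are shown for Amn and Lrp2 where the array's own annotation (mouse build mm7) places the 60-base probe across a longer stretch of genome than the probe itself; exon positions were not assigned. The Amn probe spans chr12:108792302-108792450 on the plus strand, a stretch of 149 bases. The Lrp2 probes span chr2:69438376-69438521, a stretch of 146 bases, and chr2:69367284-69368021, a stretch of 738 bases, both on the minus strand.
Amn A_51_P343350: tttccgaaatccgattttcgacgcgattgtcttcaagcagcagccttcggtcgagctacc
Lrp2 A_51_P174921: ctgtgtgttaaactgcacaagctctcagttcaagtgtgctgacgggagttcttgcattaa
Lrp2 A_52_P460882: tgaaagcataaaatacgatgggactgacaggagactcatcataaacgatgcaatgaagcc

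The siRNA target was lower on every probe. Smarca4 had log2 signals of 3.76, 3.74 and 3.60 on the BRG1 siRNA arrays and 4.32, 4.36 and 4.23 on the control siRNA arrays, a difference of -0.60 ± 0.06 (SE; limma adjusted p = 0.00365), and its other probes gave -0.87 and -0.59. Throughout, a log2 signal is log2 of the scanner software's processed signal minus the 75th percentile of that array, a difference is BRG1 siRNA minus control siRNA, and a gene is represented by its brightest probe. The share of spots well above background ran from 60.9% to 70.9% on the BRG1 siRNA arrays and from 64.8% to 75.3% on the control siRNA arrays. A gene was tested if its probe was well above background on all 3 arrays of at least 1 group, which held for 17758 gene names. Of these, 23.3% passed an adjusted p of 0.05, 9.87% higher and 13.4% lower with BRG1 siRNA, and the median difference was -0.04; with spike-in scaling 3570 rose and 646 fell, with a median of 0.16. BRG1 siRNA 1 shared a slide and a scan with the 3 control siRNA arrays, and BRG1 siRNA 2 and 3 were on the other slide. Of the 15 ES cell markers looked up, all 14 with a probe were well above background on all 6 arrays, among them Pou5f1, Sox2, Zfp42 and Nanog.

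Of the 10 endoderm genes, 7 had a tested probe, and Pdgfra, Ttr and Afp did not. None of the 7 rose and 2 fell, Dab2 and Amn, which is 28.6% of those tested, beside 23.3% of all tested genes in either direction and 13.4% lower. With 7 genes tested, this count does not set the endoderm genes apart from the background. For 3 of the 7 (Dab2, Amn and Cubn) no BRG1 siRNA array fell among the controls, against a separation of groups in 44.0% of all tested genes. The median difference of the 7 was -0.12, beside -0.04 for all genes, and it turned to 0.08 with spike-in scaling, beside 0.16 for all genes. In RNA from a whole culture, fewer cells of a type and less RNA per cell cannot be told apart. At the level of single probes, 10 of the 20 were tested and the same 2 genes had 1 probe each past the threshold, against 19.6% of all 26257 tested probes.

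**Figure D1:**
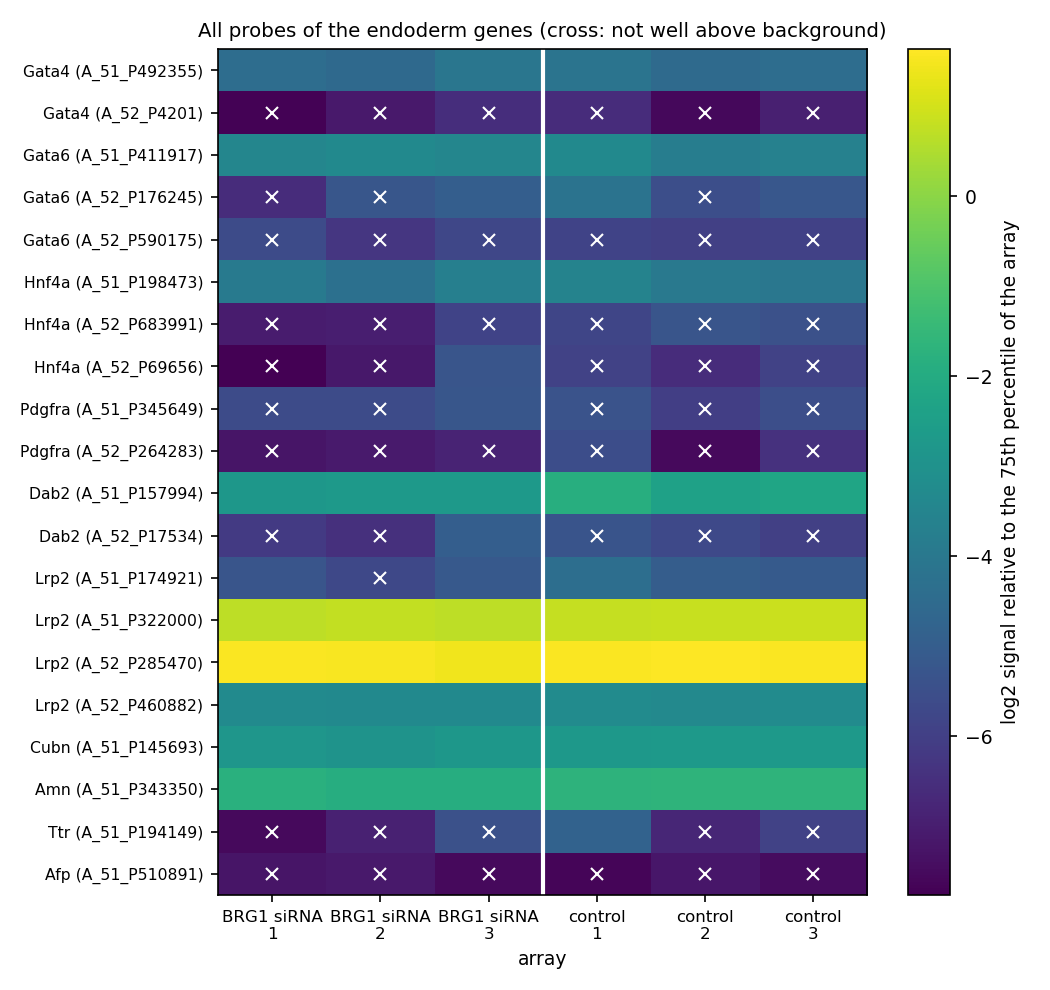
Log2 signal of all 20 probes of the 10 endoderm genes (rows, with probe names) on the 3 BRG1 siRNA arrays and the 3 control siRNA arrays (columns), with colour giving the level after 75th percentile scaling and a cross where the probe was not well above background. Colours are to be read along a row; the single Afp probe has a cross on all 6 arrays, and the single Cubn and Amn probes have none.

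The transcription factors that specify the lineage did not pass the test in either direction. Gata6, which starts the primitive endoderm program, had log2 signals of -3.46, -3.31 and -3.45 with BRG1 siRNA and -3.29, -3.78 and -3.64 with control siRNA. Control siRNA 1 was the highest of the 6 arrays and the other 2 controls were the lowest, so the groups overlapped. The difference was 0.17 ± 0.13 (SE; 95% interval -0.17 to 0.50; adjusted p = 0.419). Another Gata6 probe was well above background on 1 BRG1 siRNA array and 2 control siRNA arrays, and the other probe on none.

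Gata4, the related factor that follows Gata6, had log2 signals of -4.39, -4.55 and -4.09 with BRG1 siRNA and -4.15, -4.50 and -4.42 with control siRNA. The highest and the lowest array were both BRG1 siRNA arrays. The difference was 0.01 ± 0.15 (SE; 95% interval -0.35 to 0.38; adjusted p = 0.954). This probe is placed on only 22 bases of mm7, chr14:58062775-58062796 on the minus strand, although it is 60 bases long. The other Gata4 probe, printed in 10 spots per array, was well above background in 0 of 29 usable spot readings with BRG1 siRNA and 0 of 27 with control siRNA.

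Hnf4a, a nuclear receptor that drives the secretory genes of visceral endoderm and liver, had log2 signals of -3.93, -4.29 and -3.70 with BRG1 siRNA and -3.55, -3.98 and -4.05 with control siRNA. The groups overlapped, and the arrays of each group spread over more than the difference between the group means. That difference was -0.12 ± 0.20 (SE; 95% interval -0.60 to 0.37; adjusted p = 0.708), the widest interval of the 7 genes. Its other 2 probes were well above background on 1 BRG1 siRNA array and 0 control siRNA arrays, and on none. An adjusted p above the threshold does not show that Gata4, Gata6 or Hnf4a had equal levels in both groups; the intervals give what these 6 arrays allow.

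Pdgfra, the receptor that primitive endoderm cells use to survive and that fibroblasts also carry, had no tested probe. Its 10-spot probe was well above background in 9 of 27 usable spot readings with BRG1 siRNA and 8 of 26 with control siRNA, and by the rule that more than 50% of the spots must pass, only BRG1 siRNA 3 counted as detected. The log2 signals were -5.62, -5.62 and -5.23 with BRG1 siRNA and -5.36, -6.01 and -5.51 with control siRNA, with overlapping groups. A second probe was not well above background on any array. No difference is given, since neither probe was well above background on all arrays of a group.

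Among the endocytic genes, Dab2 and Amn were lower with BRG1 siRNA, while Cubn and Lrp2 did not pass the test. Dab2 had log2 signals of -2.80, -2.73 and -2.69 with BRG1 siRNA and -1.86, -2.39 and -2.25 with control siRNA. Every BRG1 siRNA array lay below every control siRNA array, and the controls were the more spread, with control siRNA 1 the highest. Before scaling, the processed signals were 308, 305 and 308 with BRG1 siRNA and 542, 445 and 434 with control siRNA. The difference of -0.57 ± 0.14 (SE; 95% interval -0.92 to -0.22; adjusted p = 0.0381) put Dab2 at 67.2% of its control level, 1.49-fold lower. This probe lies at chr15:6266416-6266475 on the plus strand of mm7. The second Dab2 probe was well above background on BRG1 siRNA 3 and on no control siRNA array, so it could not be set beside the first.

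The Dab2 call rested on a thin margin. It was lost in 8 of the 21 alternatives run, with differences from -0.68 to -0.37 over all of them, so the direction was the same in all 21. Leaving out any 1 BRG1 siRNA array ended the call (adjusted p from 0.0671 to 0.113), as did leaving out control siRNA 3 (adjusted p = 0.0975). With slide as a block, which compares BRG1 siRNA 1 with the 3 controls of its slide, the difference was -0.64 with an adjusted p of 0.139.

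Amn had log2 signals of -1.80, -1.92 and -1.92 with BRG1 siRNA and -1.70, -1.65 and -1.66 with control siRNA. All BRG1 siRNA arrays were lower than all controls, and the nearest pair of arrays across the groups, BRG1 siRNA 1 and control siRNA 1, was on the same slide. Before scaling the groups did overlap, with processed signals of 615, 533 and 526 with BRG1 siRNA and 604, 744 and 653 with control siRNA. The 75th percentiles used for scaling were 2148, 2021 and 1986 on the BRG1 siRNA arrays and 1961, 2333 and 2071 on the control siRNA arrays. After scaling the difference was -0.21 ± 0.05 (SE; 95% interval -0.33 to -0.09; adjusted p = 0.0314), or 86.4% of the control level, a 1.16-fold fall. The call was lost in 13 of the 21 alternatives. With scaling on the spike-in controls the difference was -0.01 (adjusted p = 0.946), and with slide as a block it was -0.13 (adjusted p = 0.183). It was also lost without any 1 array other than BRG1 siRNA 1, with adjusted p from 0.0612 to 0.117.

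Cubn, the receptor that needs Amn to reach the surface, had log2 signals of -2.82, -2.93 and -2.78 with BRG1 siRNA and -2.74, -2.73 and -2.71 with control siRNA. All 3 BRG1 siRNA arrays were below the 3 controls, whose SD was only 0.02. The difference was -0.12 ± 0.05 (SE; 95% interval -0.25 to 0.02; adjusted p = 0.171), which did not pass, and it turned to 0.08 with spike-in scaling. The Cubn probe lies at chr2:13215519-13215578 on the minus strand of mm7.

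Lrp2, the large endocytic receptor megalin, was the endoderm gene with the most detected probes, 4 of 4 tested. Its representative probe, at chr2:69355058-69355117 on the minus strand of mm7, had log2 signals of 1.59, 1.56 and 1.45 with BRG1 siRNA and 1.60, 1.64 and 1.57 with control siRNA. The groups overlapped at BRG1 siRNA 1, and the difference was -0.07 ± 0.05 (SE; 95% interval -0.20 to 0.06; adjusted p = 0.397). The neighbouring probe at chr2:69356140-69356199 had 0.71, 0.76 and 0.70 with BRG1 siRNA and 0.80, 0.84 and 0.89 with control siRNA. Its groups did not overlap, and its difference of -0.12 ± 0.05 had an adjusted p of 0.130 over all probes. Of the 2 Lrp2 probes shown above, A_52_P460882 differed by -0.02 ± 0.05 (adjusted p = 0.763). A_51_P174921 differed by -0.56 ± 0.25 (adjusted p = 0.170) and was well above background on 2 of 3 BRG1 siRNA arrays and 3 of 3 control siRNA arrays. All 4 differences were negative and none passed the test, and A_51_P174921 was tested through the control arrays alone. With spike-in scaling the representative probe turned to 0.13.

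**Figure D2:**
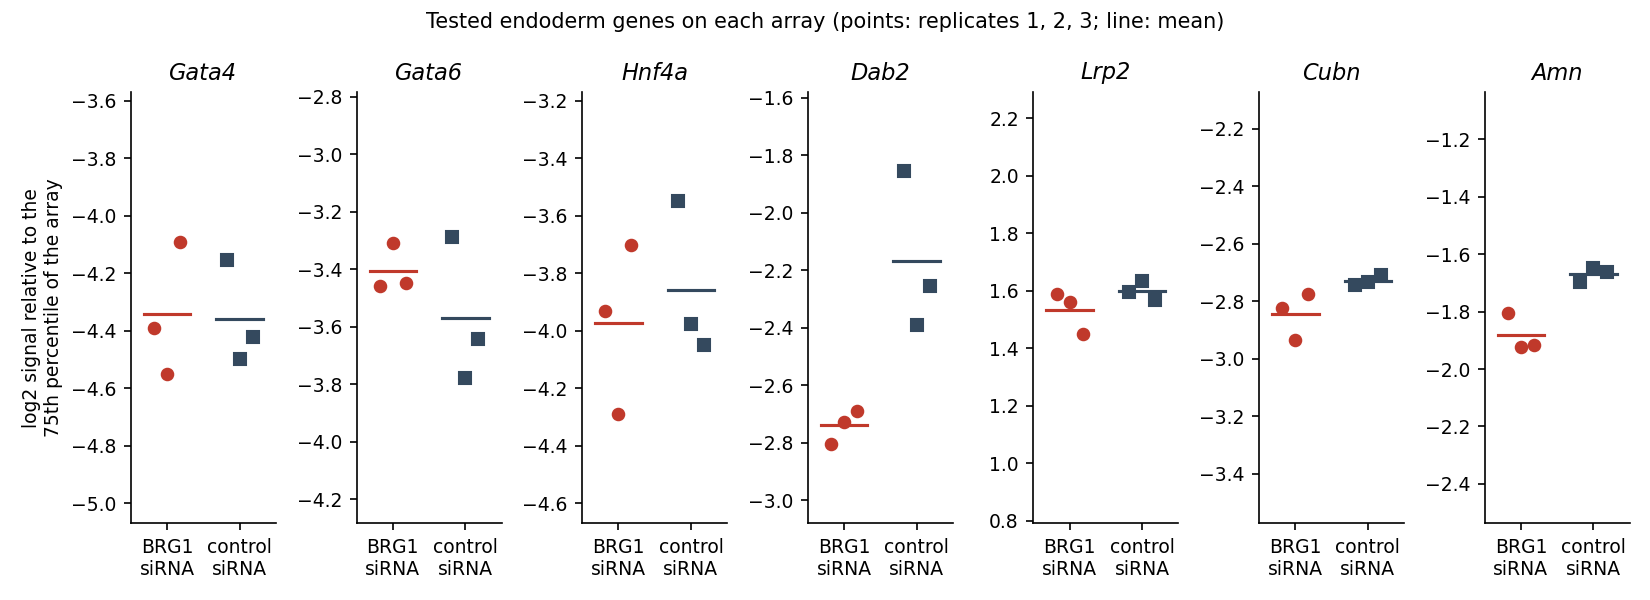
Log2 signal after 75th percentile scaling for the 7 tested endoderm genes, with a point for each replicate (BRG1 siRNA on the left, control siRNA on the right of each panel) and a line at the mean of 3 arrays. Every panel spans the same range of the log2 scale; the points of Dab2, Amn and Cubn do not overlap between groups, and those of Gata4, Gata6, Hnf4a and Lrp2 do.

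**Figure D3:**
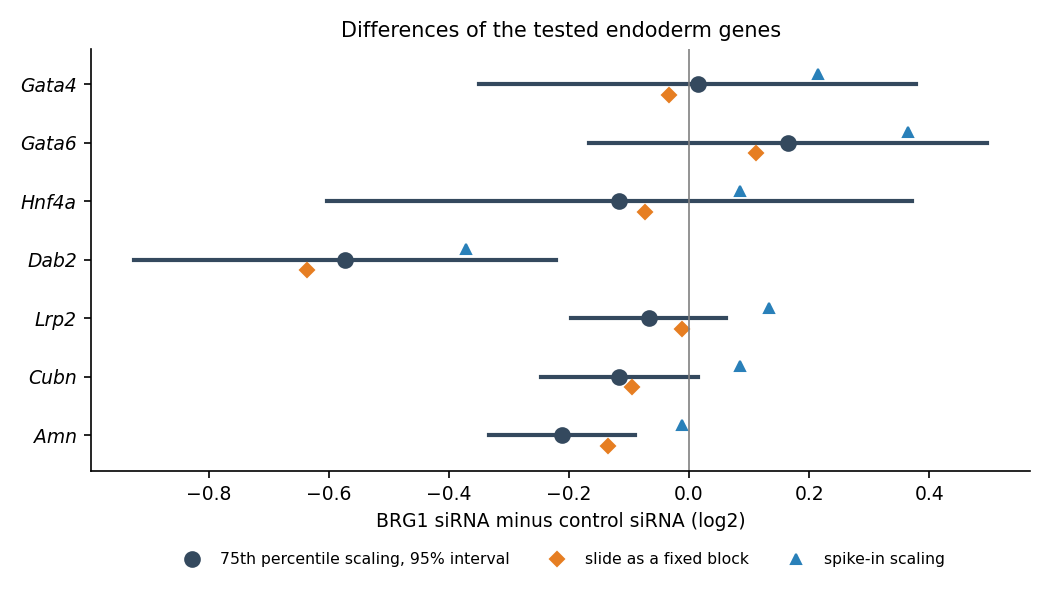
Difference, BRG1 siRNA minus control siRNA on the log2 scale, of the 7 tested endoderm genes: circles with 95% intervals for 75th percentile scaling, diamonds for slide as a fixed block and triangles for spike-in scaling. The intervals of Dab2 and Amn lie below 0; spike-in scaling moves every gene to the right, and with it Hnf4a, Lrp2 and Cubn lie above 0.

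Of the 10 genes, the 2 that encode secreted products, Afp and Ttr, were at or near background in both groups. Afp, the fetal serum protein made by visceral endoderm and fetal liver, was well above background in 0 of 29 usable spot readings with BRG1 siRNA and 0 of 30 with control siRNA. Ttr, the carrier of thyroxine and retinol-binding protein, was well above background on 0 BRG1 siRNA arrays and on 1 control siRNA array, control siRNA 1. No fold is given for either gene, since neither group gave a level. With no filter on dim probes all 10 endoderm genes entered the fit and 0 passed, with adjusted p values of 0.106 for Dab2 and 0.108 for Amn.

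Wider lists of the same tissues were counted beside the 10 genes. Among other primitive endoderm genes, 17 of 20 were tested, 2 rose and 2 fell, or 23.5% called beside 23.3% of all tested genes. The median difference was -0.02 and turned to 0.18 with spike-in scaling. The list held transcription factor and signalling genes and also Serpinh1, Nid2 and Srgn. The factors closest to the lineage decision did not pass: Sox17 differed by -0.08 (adjusted p = 0.637), Sox7 by 0.40 (adjusted p = 0.252) and Foxa2 by 0.03 (adjusted p = 0.855). Serpinh1, a collagen chaperone of the endoplasmic reticulum, fell to a log2 signal of 3.07 ± 0.04 with BRG1 siRNA, against 3.81 ± 0.08 with control siRNA (SD, n = 3 arrays each; difference -0.74, limma adjusted p = 0.00167). Eomes, a T-box factor of visceral endoderm, primitive streak and trophoblast, fell by 0.66 (adjusted p = 0.00318). The 2 that rose were the growth factor gene Pdgfc, by 0.29, and the transcriptional coregulator gene Cited1, by 0.25. With slide as a block neither passed, at 0.28 (adjusted p = 0.056) and 0.18 (adjusted p = 0.213), while Serpinh1 and Eomes kept theirs.

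The secreted and absorptive genes of visceral endoderm other than Ttr, Afp and the receptors had more members lowered. Of 24, 17 were tested, 0 rose and 8 fell, or 47.1% against 13.4% of all genes. The median difference was -0.36 beside -0.04 for all genes. Some dim genes were tested through the control arrays alone, among them Apoa2 and Fgg. With detection required on all 6 arrays 14 were tested, 0 rose and 8 fell (median -0.36). A high share called was not particular to this list. In either direction it was 55.6% for fibroblast and 50% for trophoblast markers, beside 23.3% of all tested genes. Ahsg, which encodes the serum glycoprotein fetuin-A, had log2 signals of -2.32, -2.27 and -2.17 with BRG1 siRNA and -1.20, -1.28 and -1.29 with control siRNA. It was 2.00-fold lower (-0.997 ± 0.057 SE, adjusted p = 0.00114), with a wide gap between the groups, and its call held in all 21 alternatives. Vil1, the actin bundler of microvilli, had -3.24, -3.36 and -3.12 with BRG1 siRNA and -2.53, -2.50 and -2.49 with control siRNA, a 1.66-fold fall (-0.73 ± 0.07 SE, adjusted p = 0.00279). Tf, the iron carrier transferrin, which the array files call Trf, averaged -2.71 with BRG1 siRNA and -1.99 with control siRNA (-0.71 ± 0.08 SE, adjusted p = 0.00428). The calls of Vil1 and Tf were lost in 1 of 21 alternatives, slide 1 alone.

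The other 5 that fell, named after their values were seen, were the membrane peptidase gene Dpp4 (-0.65), the zinc transporter gene Slc39a8 (-0.60), the cathepsin gene Ctsh (-0.36), the retinol carrier gene Rbp4 (-0.36) and the cell adhesion gene Emb (-0.28). Other members did not pass the test: Apoe, the lipid carrier, differed by 0.19 (adjusted p = 0.156), and Apom by 0.25 (adjusted p = 0.151). Apoa1, Apob, Alb, Fga, Fgb and Habp2, most of them genes of plasma proteins, had no tested probe. The summed signal of the list overlapped between groups, at 131 to 150 (150.4) times the 75th percentile on the BRG1 siRNA arrays. On the control siRNA arrays it was 137 to 146 times. The sum is linear and is made up mostly of Apoe and Rhox5. Their mean log2 signals were 5.98 and 5.98 with BRG1 siRNA and 5.80 and 6.09 with control siRNA. Neither passed the test, so the sum says little about the 8 that fell. With slide as a block 5 of the 17 fell and 0 rose (median -0.33); with spike-in scaling 4 fell and 3 rose (median -0.16); and leaving out 1 array gave 4 to 8 lowered and 0 raised, with 4 without control siRNA 3. These lists were drawn up with earlier results of the same arrays known, so their counts describe the arrays and are not independent evidence.

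**Figure D4:**
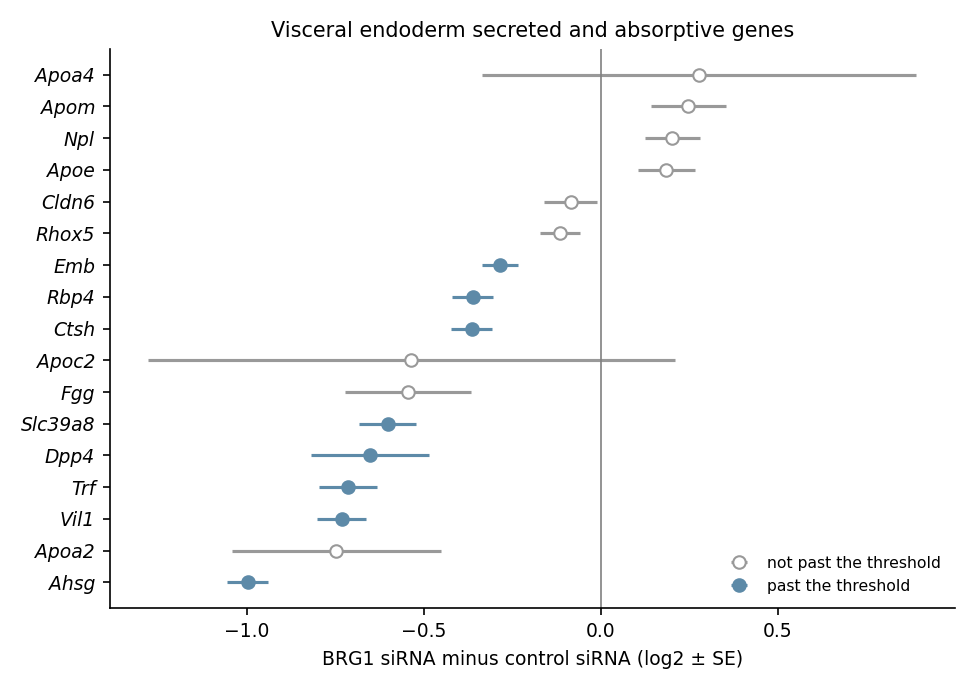
Difference, BRG1 siRNA minus control siRNA on the log2 scale with its standard error, for the 17 tested secreted and absorptive genes of visceral endoderm; filled circles passed the threshold and open circles did not. All 8 filled circles lie left of 0, with Ahsg the lowest at -0.997; 4 open circles, Apoa4, Apom, Npl and Apoe, lie right of 0.

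The endocytic partners of megalin, cubilin and DAB2 were split in direction, with 4 of 19 tested raised, 3 lowered and a median of 0.05. The share called was 36.8%, beside 23.3% of all tested genes. With spike-in scaling 7 were raised and 3 lowered, with a median of 0.25. Vldlr and Lrp8, receptor genes of the family of Lrp2, were among those that fell. Vldlr had log2 signals of -3.92, -3.98 and -3.65 with BRG1 siRNA and -3.33, -3.14 and -3.09 with control siRNA (-0.66 ± 0.11 SE, adjusted p = 0.0116), with no overlap. Lrp8 differed by -0.57 ± 0.12 (SE, adjusted p = 0.0245). Both were dim, and their sizes depended on the background correction. With normexp correction and 75th percentile scaling Vldlr was at -0.46 and Lrp8 at -0.30. With slide as a block neither passed (adjusted p = 0.0669 for Vldlr and 0.112 for Lrp8). Among those that rose were the IgG receptor gene Fcgrt (0.29), the clathrin adaptor gene Ap2a1 (0.28) and, named after its value was seen, the cobalamin carrier gene Tcn2 (0.19). Fcgrt and Ap2a1 were not past the threshold with that block. Lrpap1, the chaperone of megalin, differed by -0.10 (adjusted p = 0.202).

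Parietal endoderm and basement membrane genes were also split, with 2 of 14 tested raised and 4 lowered and a median of 0.03. The share called was 42.9%, beside 23.3% of all tested genes. With spike-in scaling 4 were raised and 1 lowered, with a median of 0.23. The keratin gene Krt19 fell by 0.74, the laminin gene Lama1 by 0.54 and the plasminogen activator gene Plat by 0.49; Thbd, named after its value was seen, fell by 0.43. The repressor gene Snai1 rose by 0.49 and the laminin gene Lamc1 by 0.40. Col4a1, Col4a2 and Sparc, which parietal endoderm makes in quantity, differed by 0.03, 0.06 and 0.09, none of them past the threshold. Blocking on slide ended the Lama1 call (adjusted p = 0.078), and spike-in scaling ended those of Lama1 and Plat (adjusted p = 0.109 and 0.0523).

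**Figure D5:**
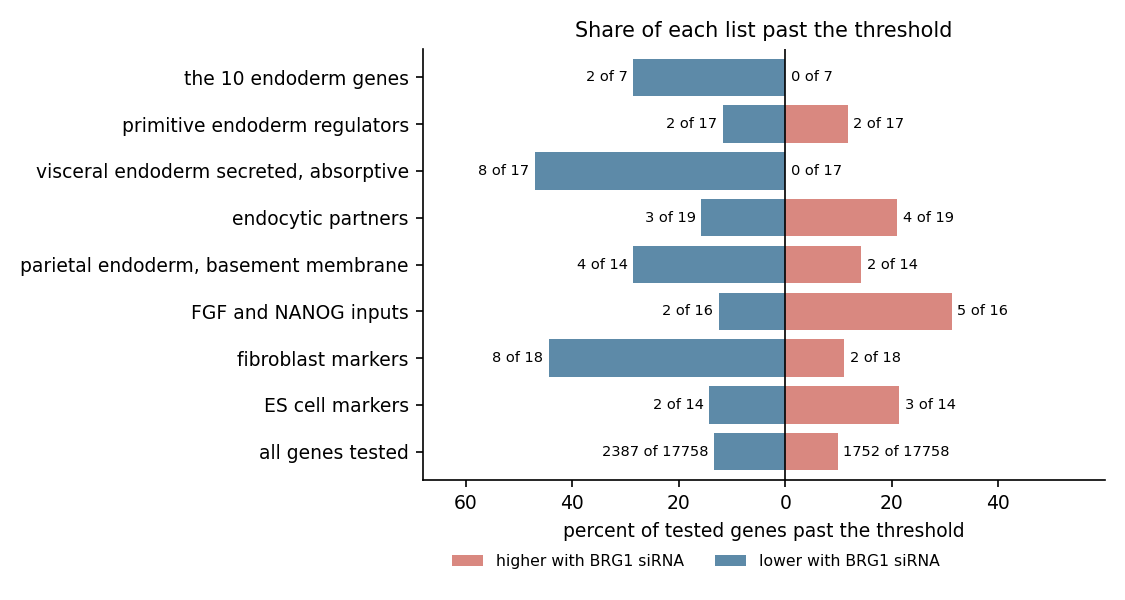
Percent of the tested genes of each list shown that passed the threshold lower (left bars) or higher (right bars) with BRG1 siRNA. Counts are beside the bars and all tested genes are in the bottom row. The definitive endoderm and streak list and the trophoblast list are not drawn. The visceral endoderm list has 8 of 17 lower and 0 higher, beside 2387 lower and 1752 higher of 17758 genes.

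Inputs that set primitive endoderm against pluripotency were measured on the same arrays, except the FGF ligand gene Fgf4, to which no probe was matched. Nanog had log2 signals of 3.24, 3.31 and 3.08 with BRG1 siRNA and 2.80, 2.86 and 2.74 with control siRNA (0.41 ± 0.07 SE, adjusted p = 0.0138), which did not hold once slide was a block (adjusted p = 0.0771). The list of FGF and NANOG input genes also held the PDGF ligand genes Pdgfa and Pdgfc. Of its 16 tested genes 5 rose, these 2 ligand genes among them, and 2 fell, with a median of -0.02. The share called was 43.8%, beside 23.3% of all tested genes. The receptor gene Fgfr1 rose by 0.62 ± 0.10 (SE, adjusted p = 0.00966) and the PDGFRA ligand gene Pdgfa by 0.45 ± 0.06 (SE, adjusted p = 0.00685); Pdgfa did not keep its call with slide as a block (adjusted p = 0.0556). The other 2 that rose were Pdgfc and, named after its value was seen, the exchange factor gene Sos1 (0.21). Fgf5 fell by 1.36 and the kinase gene Mapk3 by 0.23; the Mapk3 call was absent with a slide block (adjusted p = 0.0848) and with spike-in scaling (adjusted p = 0.84). Fgfr2, the receptor that primitive endoderm carries, had -1.25, -1.22 and -1.47 with BRG1 siRNA and -0.91, -1.06 and -1.16 with control siRNA (-0.27 ± 0.10 SE, adjusted p = 0.0986); averaged over its probes the difference was 0.11, of opposite sign. FGF target genes did not pass the threshold, with Spry2 at -0.03, Dusp6 at -0.13 and Etv5 at 0.06. Pou5f1 was lower by 0.33 (adjusted p = 0.0206), not past the threshold with a slide block (adjusted p = 0.14). Its call was lost in 11 of the 21 alternatives, and with spike-in scaling the difference was -0.13 (limma adjusted p = 0.431).

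Markers of other cell types moved on the same arrays, and their part in the endoderm results was not tested. Of 18 tested fibroblast markers, 8 fell and 2 rose (median -0.20). The share called was 55.6%, beside 23.3% of all tested genes (13.4% lower and 9.87% higher). The largest changes were those of S100a4, Thy1 and Col3a1 at -1.09, -0.79 and -0.73 and of Mgp and Lox at 1.17 and 0.75. With normexp background correction and 75th percentile scaling Mgp, Lox and Col3a1 were at 0.85, 0.64 and -0.58. S100a4 and Thy1 stayed at -1.09 and -0.79. The number that fell was 4 with spike-in scaling (median -0.0032), median scaling, slide as a fixed block or the replicate block. The summed signal of the fibroblast markers was 82.5 to 83.2 times the 75th percentile on the BRG1 siRNA arrays. On the control siRNA arrays it was 91.9 to 96.8 times. This linear sum is made up mostly of the brightest markers, Vim, Acta2 and Tagln. Lum and Fap had no tested probe. Of 12 tested definitive endoderm and streak markers, which include Gata4 and Gata6, 4 fell and 0 rose (median -0.25), or 33.3% called. With detection required on all 6 arrays 11 were tested, 4 fell and 0 rose (median -0.20). With spike-in scaling 4 of the 12 fell and 0 rose, and the median was -0.05. The streak genes T, Fgf8 and Wnt3 fell by 2.01, 1.55 and 0.84, and Eomes, given above, is the fourth. T was dim with BRG1 siRNA, and with normexp background correction and 75th percentile scaling its difference was -1.42. The summed signal of the streak list was 2.81 to 2.99 times with BRG1 siRNA and 3.73 to 4.35 times with control siRNA. That linear sum is made up mostly of the brightest genes, Hhex, Fgf8 and Wnt3, so it does not describe the list as a whole. Hhex differed by 0.14 and did not pass the test. Of 12 tested trophoblast markers 3 fell and 3 rose (median 0.07), or 50% called. Cdx2 was at -0.95, Krt7 at -0.79 and Hand1 at 0.79. With spike-in scaling 3 of this list fell and 5 rose (median 0.27), and with slide as a block 3 fell and 1 rose. Hand1 was dim, and with normexp background correction and 75th percentile scaling its difference was 0.46.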

How the data were processed

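Total RNA of 6 ES cell samples (3 with BRG1 siRNA, 3 with control siRNA) was hybridised, and the groups were taken from the sample labels. The deposited scanner files give spot intensity on a linear scale, extracted by the authors from array design 014868 with Agilent Feature Extraction (9.5.3.1 per the file headers, 9.5 per the submitters' processing notes). Their processed signal is background-subtracted but not normalized between arrays, and probes are placed on mm7. The deposited value table was identical to it (largest difference 0).

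From these intensities, log2 signal minus each array's 75th percentile of the non-control spots was computed; between 70 and 112 outlier spots per array were left out, and spots of a probe were averaged. Groups were compared with limma 3.58.1 (lmFit, eBayes) under R 4.3.3; tests were two-sided and p-values were adjusted by Benjamini-Hochberg over all 17758 genes, or over all 26257 probes for probe values, with 0.05 as the threshold. Precision is limited by the number of arrays. The method was tested on simulated data.

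The endoderm genes and the lists were chosen with earlier results of these data known. Named genes are the 10 endoderm genes, Smarca4, up to 3 genes per direction and list with the largest change past the threshold and detected on all 6 arrays, and Pou5f1, Nanog, Fgf4 and Fgfr2; no probe was matched to Fgf4. The alternatives were other background corrections, scalings and filters, slide and replicate blocks, probe averages, other eBayes settings, array weights, the value table, and each array left out. Array symbols were updated through an annotation of GRCm38.p6, from which no coordinate was taken. Accessions gave 11920 names of tested genes, symbols 1765 and synonyms 1023, while 3050 stayed as in the files. Promoters of Gata4, Gata6 and Ttr were not used here, and a few genes that the naming rule takes are not reported here.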

Additional observations from a re-analysis of the deposited data

How the results depend on the processing

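The count of endoderm genes past the threshold was 2 in the reported fit and 3 with array weights. It was 1 with normexp and quantile normalization, normexp and 75th percentile scaling, median scaling and spike-in scaling. It was 0 with no filter on dim probes, slide as a fixed block, slide 1 alone and the replicate block, and 0 to 1 when an array was left out. The count of endoderm probes, also 2, was 1 with quantile normalization and median scaling, 0 with spike-in scaling, no filter, slide as a fixed block, slide 1 alone and the replicate block, 4 with array weights, and 0 to 1 when an array was left out. Over all genes, 4139 calls became 1734 with median scaling, 1740 with no filter, 1392 with slide as a fixed block, 123 with slide 1 alone, 1945 with the replicate block, 8214 with array weights, and 1668 (without control siRNA 3) to 4416 when an array was left out. Spike-in scaling moved the median of all genes to 0.16 and gave 3570 raised and 646 lowered, against 1752 raised and 2387 lowered. Smarca4 lost its call with slide 1 alone (-0.54, adjusted p = 0.0627).

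Values that turned sign, none of them past the threshold, were Hnf4a 0.0843, Cubn 0.0846, Lrp2 0.133 and Tfcp2l1 0.0257 with spike-in scaling, and Fgfr2 0.114 averaged over probes. Gata4 turned to -0.0331 with slide as a fixed block and with slide 1 alone and to -0.0510 with array weights; when an array was left out it ran from -0.112 (without BRG1 siRNA 3) to 0.118, and was also below 0 without control siRNA 2 (-0.0556) or 3 (-0.0169). Hnf4a ran from -0.252 to 0.0414 (without BRG1 siRNA 2) when an array was left out, and was also above 0 without control siRNA 1 (0.0379). The cause of these changes was not tested. Gata6 kept its sign in all 21 alternatives and Cubn gained a call with array weights.

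Deviations of same-numbered arrays from their group means correlated at -0.31, 0.11 and -0.02. Those of differently numbered arrays ran from -0.34 to 0.34, so these values gave no sign of pairing by replicate number. Whether same-numbered arrays shared a culture was not tested. With the replicate block Dab2 was at -0.57 (adjusted p = 0.093) and Amn at -0.21 (adjusted p = 0.101). Probes at or near background, those of Ttr, Afp and Pdgfra among them, carry no usable difference at this signal. Since slide 2 held BRG1 siRNA arrays only, slide and group can be separated only through BRG1 siRNA 1.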
